A study of Caenorhabditis elegans with 2 samples.

Results

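Promoter peaks of EGL-44 are described here: 226 regions whose summit lay within 200 bp, on either side, of an annotated transcript start of a protein-coding gene. They were taken from the 1537 nuclear regions among the 1553 regions of the pooled list that passed the reproducibility threshold, an irreproducible discovery rate (IDR) of 0.01 or less. Before the last step 280 peaks met the distance limit, and those with the start of a tRNA, snoRNA, snRNA, rRNA or ncRNA gene within 300 bp were left out. The 226 promoter peaks made up 14.7% of nuclear peaks and lay at 240 protein-coding genes, 1.2% of the 19973 nuclear ones. Starts came from Ensembl annotation of assembly WBcel235 (ce11), the position of a summit was read from the deposited list, and no signal value entered the choice.

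Chromatin was prepared from whole young adult Caenorhabditis elegans aged 66.5 h, in a single group of 2 biological replicates. The worms were of strain RW12173, in which GFP was inserted at the egl-44 gene by CRISPR together with a loxP-flanked unc-119(+) copy, in an unc-119(tm4063) III background. They had been synchronised as starved first-stage larvae after bleaching. Tagged protein was precipitated with an antibody against GFP, and no other stage, genotype or treatment was profiled. As the worms were taken whole, the cells in which a promoter was bound cannot be told apart.

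EGL-44 is the worm member of the TEAD family, transcription factors that bind DNA through a TEA domain and work with the YAP coactivator in the Hippo pathway; with the zinc finger protein EGL-46 it is known for keeping touch receptor genes off in other neurons. A promoter is the DNA just upstream of a gene's start, where general and gene-specific factors assemble. In this compact genome many neighbouring genes are transcribed away from each other from one short intergenic stretch, and many messenger RNAs are trimmed by trans-splicing, so that some annotated starts mark the splice site and not the first transcribed base.

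The stretches below are the part of each peak region within 100 bp of the summit that lies upstream of the annotated start (and, for divergent pairs, between both starts), written 5′ to 3′ on the strand of the named gene, from the RefSeq genome of assembly WBcel235. They are shown because they are 5 of the 6 promoter peaks of highest signal (tasp-1, Y17G9B.5, F44E5.4, cdc-48.1 and his-37; set-16, the 5th, is not shown) or a heat shock protein gene with several of the words discussed further on (hsp-3). Capitals mark, on either strand, the TEAD core CATTCC, the TATA box word TATAAA, the purine repeat GAGAGA, the splice acceptor word TTTCAG, the heat shock core GAANNTTC and, from a search of the promoter peaks themselves, the words ACGCGC together with the longer TGCGTCT. They are tasp-1 at III:10759182-10759306 (plus strand), Y17G9B.5 at IV:4749998-4750143 (plus), F44E5.4 at II:11759423-11759556 (minus), cdc-48.1 at II:10563518-10563650 (minus), his-37 at V:9546941-9547054 (plus) and hsp-3 at X:6092125-6092285 (minus).
tasp-1: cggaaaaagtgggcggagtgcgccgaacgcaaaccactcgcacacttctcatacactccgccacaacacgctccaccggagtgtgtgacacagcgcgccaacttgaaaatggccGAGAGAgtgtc
Y17G9B.5: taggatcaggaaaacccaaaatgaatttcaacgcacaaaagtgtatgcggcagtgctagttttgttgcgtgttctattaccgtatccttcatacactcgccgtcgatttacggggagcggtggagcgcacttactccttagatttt
F44E5.4: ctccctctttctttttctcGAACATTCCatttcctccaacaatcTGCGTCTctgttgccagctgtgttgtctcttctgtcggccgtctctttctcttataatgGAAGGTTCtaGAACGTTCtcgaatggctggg
cdc-48.1: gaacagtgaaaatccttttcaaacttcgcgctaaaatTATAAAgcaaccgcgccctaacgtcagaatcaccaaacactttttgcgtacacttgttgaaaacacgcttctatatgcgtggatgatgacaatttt
his-37: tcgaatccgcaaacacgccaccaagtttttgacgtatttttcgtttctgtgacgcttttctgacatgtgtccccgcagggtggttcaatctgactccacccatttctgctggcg
hsp-3: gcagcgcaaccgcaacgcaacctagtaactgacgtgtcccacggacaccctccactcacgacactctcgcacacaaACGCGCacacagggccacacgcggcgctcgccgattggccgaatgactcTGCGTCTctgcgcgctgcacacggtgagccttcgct
The Y17G9B.5 and his-37 stretches held none of the 7 words. TATAAA did lie within 100 bp of the his-37 summit, but outside the printed stretch, which was cut at the edges of the region.

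The strongest promoter peak lay at a protease gene. Next were those beside a ribosomal protein gene, between heat shock protein 70 genes, and at cdc-48.1, set-16 and the histone gene his-37. Nearly all of the 20 strongest passed in both replicates. Values are the deposited signal, a peak strength whose scaling between libraries is not stated, so values are compared inside 1 list at a time. The highest, 336.6, was at tasp-1, a homologue of the protease taspase, on chromosome III (10759158-10759375), with the summit 25 bp upstream of the start. In the replicates' own ranked lists the tasp-1 region had a signal of 200.8 in replicate 1 and 141.0 in replicate 2, where it stood 6th and 9th among nuclear regions. No other promoter peak was among the first 9 in either replicate.

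The second, 255.3, lay between Y17G9B.5, annotated as a homologue of a mitochondrial intermediate of Toll signalling, and rpl-18A, which encodes a protein of the large ribosomal subunit. Its replicate signals were 146.2 and 107.4. The third, 245.6, lay between F44E5.4 and F44E5.5, which both encode heat shock protein 70, with replicate signals of 138.0 and 107.6. Those genes are 99.9% identical over 2195 aligned bases. The summit lay 166 bp upstream of the F44E5.4 start and 185 bp upstream of that of F44E5.5, in the intergenic stretch printed above; whether that stretch is itself repeated in the genome was not tested.

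At cdc-48.1, which encodes the AAA ATPase that extracts ubiquitin-tagged proteins, the pooled signal was 238.2. Its replicates were far apart: 169.7 in replicate 1, where it ranked 10th, and 66.0 in replicate 2, where it ranked 137th. The peak between set-16, a methyltransferase of the MLL type, and drr-2 had 209.7 in the pooled list, 106.2 in replicate 1 and 99.6 in replicate 2, ranks 63 and 27. The histone H4 gene his-37 had 199.0, with 118.0 and 82.1 in the replicates. The gluconeogenic enzyme gene pck-2 had 180.5, with 79.2 in replicate 1 and 108.2 in replicate 2, where it ranked 162nd and 21st, so that it stood far higher in replicate 2.

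The rest of the 20 strongest had pooled signals between 130.2 and 169.2. In falling order they were iff-2 (an initiation factor 5A), hsr-9 with rps-19, dnj-28 with supr-1, rpi-2, atx-2 (ataxin-2), hsp-3 (the endoplasmic reticulum chaperone BiP), cox-5B (a cytochrome c oxidase subunit), atp-1 (ATP synthase subunit alpha) with mcrs-1, K07C5.13, ears-2 (a mitochondrial glutamyl-tRNA synthetase) with uncp-18, the chemoreceptor gene srh-2, ndk-1 (a nucleoside diphosphate kinase) with cert-1, and cids-2 with phip-1. Of the 20, all but K07C5.13 and srh-2 were in both replicates' own thresholded lists, and those exceptions were in that of replicate 1. At srh-2 the replicate signals were 93.6 and 42.8.

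**Figure D1:**
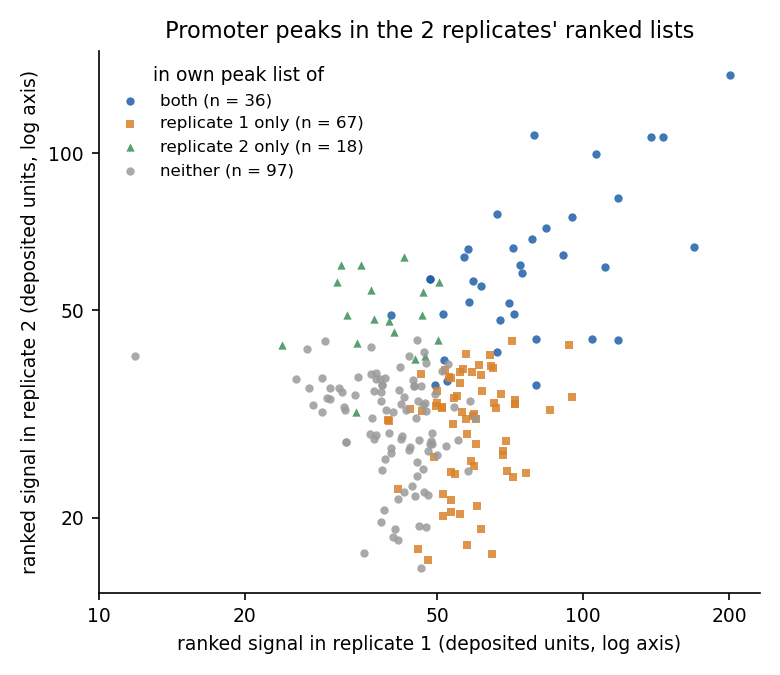
Signal of each promoter peak in the ranked list of replicate 1 (x) and replicate 2 (y), deposited units on log axes, for the 218 of 226 peaks ranked in both; colours give the replicate whose own thresholded list held the peak. Peaks in both own lists tend to lie to the upper right, led by tasp-1 at 200.8 and 141.0, and peaks in neither to the lower left. The groups overlap: gpap-1, in neither (52.6 and 39.5), was higher on both axes than C56C10.7, in both (52.3 and 36.6).

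Few promoter peaks passed in both replicates separately, and 100 were in neither replicate's own list. Of the 226, 36 (15.9%, 95% Wilson interval 11.7 to 21.3) overlapped a peak in both replicates' own thresholded lists, 72 in that of replicate 1 only, 18 in that of replicate 2 only, and 100 in neither. Their median pooled signals were 129.2, 85.9, 86.2 and 70.2. The 18 found in replicate 2 alone included the V-ATPase subunit gene vha-2 (47.2 and 40.9 in replicates 1 and 2), the capping enzyme gene cel-1 (50.2 and 43.9) and ekl-4 with rps-20 (34.8 and 61.0). All 226 overlapped at least a ranked region of replicate 1 and 218 one of replicate 2, with median ranks of 825.5 of 53820 and 1118 of 40854. A summit of the replicate's own lay within 50 bp of the pooled one for 194 peaks in replicate 1 and 173 in replicate 2. Across the 218 peaks the signals of replicates 1 and 2 were loosely related (Spearman rho 0.179, Pearson r of the log2 values 0.361). The peaks share both libraries and were kept by a threshold on the pooled data. Both values are thus a description of the 218, not a measure of how the replicates relate over all regions.

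Other nuclear peaks away from small RNA genes, 799 in all, were in both own lists for 155 (19.4%). The odds ratio of promoter peaks against them was 0.787 (95% bounds 0.514 to 1.18), which did not pass Fisher's exact test, two-sided (p = 0.247, 0.371 after Benjamini-Hochberg adjustment over the 6 shares tested). The conservative list held 175 promoter peaks (77.4%) and 606 of the other peaks (75.8%), an odds ratio of 1.09 (0.761 to 1.59; Fisher's exact p = 0.659, adjusted 0.665). Its 175 included peaks in neither replicate's own list, such as dod-3 and ddp-1. Regions are not independent replicates, so this p and those that follow describe the lists and not the spread between worms. No read counts were used, the depth behind each region is unknown, and the intervals cover the counting of regions only.

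Being at a coding start was more frequent among peaks than among the weaker regions, the 78252 nuclear regions of the pooled ranked list that missed the IDR limit. Under the same rule the share was 14.7% of peaks (13.0 to 16.6) and 11.3% of weaker regions, an odds ratio of 1.36 (1.17 to 1.57; Fisher's exact p = 4.73e-05, adjusted 9.46e-05). Both totals hold regions at small RNA genes, which the rule bars, and with these left out of both the shares were 22.05% of peaks and 11.9% of weaker regions, an odds ratio of 2.09. With small RNA regions kept in both totals, as for the odds ratio of 1.36, the value differed between lists. It was 1.42 in replicate 1's own lists (Fisher's exact p = 0.000782), 0.881 in those of replicate 2 (p = 0.39) and 1.08 at an IDR of 0.001 or less (p = 0.556). For these lists it was not computed with small RNA regions left out, so they cannot be set against the 2.09.

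Summits sat on the upstream side of the genes. Among the 226 promoter peaks 163 summits (72.1%) were upstream of the nearest start, as at tasp-1 (25 bp), his-37 (85 bp), cdc-48.1 (153 bp) and atx-2 (75 bp), and among the 8818 weaker regions under the rule 46.04% were. The median position was 75.5 bp upstream (quartiles −139.25 and 6 bp, negative upstream) for promoter peaks and 12 bp downstream for the weaker regions. The promoter peaks were not crowded onto the start itself: 61 (27.0%) lay within 50 bp of it, against 27.6% of weaker regions. Per 50 bp they were most frequent from −200 to −151 bp, with 49 peaks, and least frequent from 151 to 200 bp downstream, with 6.

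**Figure D2:**
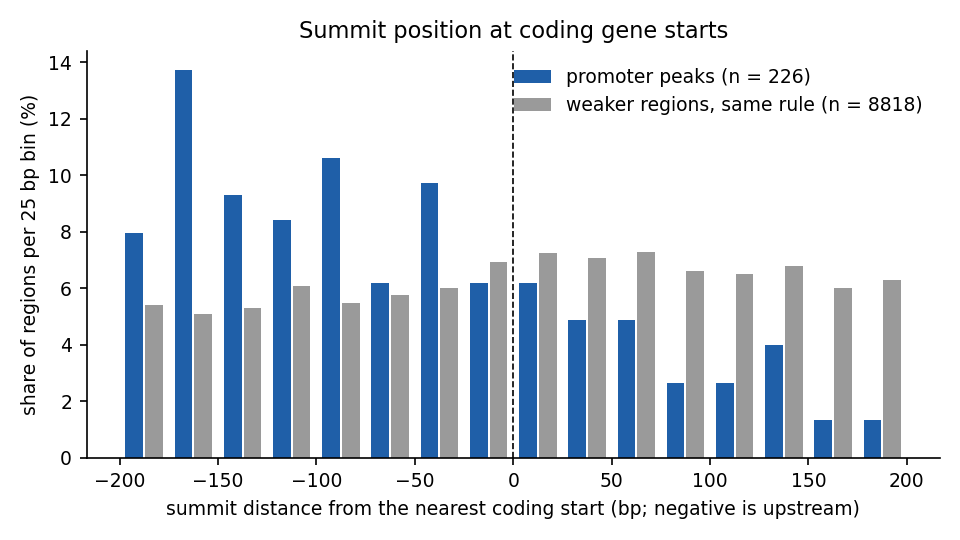
Share of promoter peaks (blue, n = 226) and of weaker regions under the same rule (grey, n = 8818) per 25 bp of distance between the summit and the nearest coding start; negative distances are upstream and the dashed line is the start. The blue bars fall off downstream of the start, and the grey bars stay nearly level.

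A divergent pair, with coding starts on opposite strands pointing away from each other within 500 bp of the summit, has no single side. The side was therefore tested at regions without such a pair. Of 173 such promoter peaks 116 (67.1%, 59.7 to 73.6) were upstream, against 3690 of 8172 weaker regions (45.2%), an odds ratio of 2.47 (1.78 to 3.47; Fisher's exact p = 1.14e-08, adjusted 3.42e-08). The odds ratio was 4.06 in replicate 1's own lists, 3.32 in those of replicate 2, 3.98 at an IDR of 0.001 or less and 1.61 (Fisher's exact p = 0.0352) with a distance limit of 100 bp. In the annotation, 141 of the 226 summits (62.4%) fell outside coding genes, 27 in a 5′ UTR, 31 in a coding exon and 27 in an intron or 3′ UTR. Peaks inside genes included those at pck-2 (9 bp into the gene, signal 180.5), K07C5.13 (3 bp, 138.4) and mdt-26, a Mediator subunit gene (34 bp, 114.2). A weaker one lay at xbp-1, the transcription factor of the endoplasmic reticulum stress response (58 bp, signal 99.6). At xbp-1 the replicate signals were 69.2 and 28.1, and only replicate 1's own list held it.

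The word TTNCAG, a splice acceptor signature, stood directly before the nearest start of 44 promoter peaks (19.5%) and of 17.8% of the 29784 coding starts in the annotation. Summits at those 44 starts had a median position 128 bp upstream, against 64.5 bp upstream at the other 182. That difference was not tested.

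Many promoter peaks stood between genes transcribed in opposite directions. A peak was called divergent where a start of another coding gene on the opposite strand, pointing away, also lay within 500 bp of the summit. This held for 53 promoter peaks (23.5%, 18.4 to 29.4) and 646 weaker regions (7.33%), an odds ratio of 3.88 (2.76 to 5.36; Fisher's exact p = 9.58e-14, adjusted 5.75e-13). Under the alternative settings run the odds ratio lay between 2.84 and 6.46; it was 5.95 in replicate 2's own lists, 4.74 in those of replicate 1 and 6.46 at an IDR of 0.001 or less.

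The 5 strongest divergent peaks were those of Y17G9B.5 with rpl-18A (starts 462 bp apart), F44E5.4 with F44E5.5 (351 bp), set-16 with drr-2 (346 bp), hsr-9, a protein of the 53BP1 type, with rps-19 (445 bp), and dnj-28 with supr-1 (574 bp). Some pairs, picked here as examples after their values were seen, joined genes of different families. The elongation factor gene eef-1G shared a peak with the replication gene ctf-4, rpl-12 with lin-54 of the DRM repressor complex, rib-2, a heparan sulphate enzyme, with the tubulin gene tbb-1, and mev-1, a succinate dehydrogenase subunit, with jmjd-4. Others joined genes of one family: rsp-1 with rsp-2 (splicing factors, signal 69.8), his-41 with his-35 (histones, 67.6) and his-64 with his-63 (histones, 60.4). Through such pairs 34 more coding genes lay beyond the 200 bp limit but opposite a promoter peak, and they are not counted among the 240.

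The starts of the 53 pairs were 15 to 677 bp apart, with a median of 321 bp, against 309 bp for the weaker regions. The summit lay between both starts in 47 of the 53 (88.7%), against 361 of 646 weaker regions (55.9%), a description with no test. In those 47 the summit was a median of 92 bp from the nearer start and 227 bp from the farther. The most even was C55A6.10 with C55A6.1 (185 and 194 bp), and the F44E5.4 summit was also near the middle (166 and 185 bp). The median signal was 87.5 at divergent promoter peaks and 79.1 at the other 173, and the ranges overlapped widely (58.7 to 255.3 and 2.28 to 336.6).

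**Figure D3:**
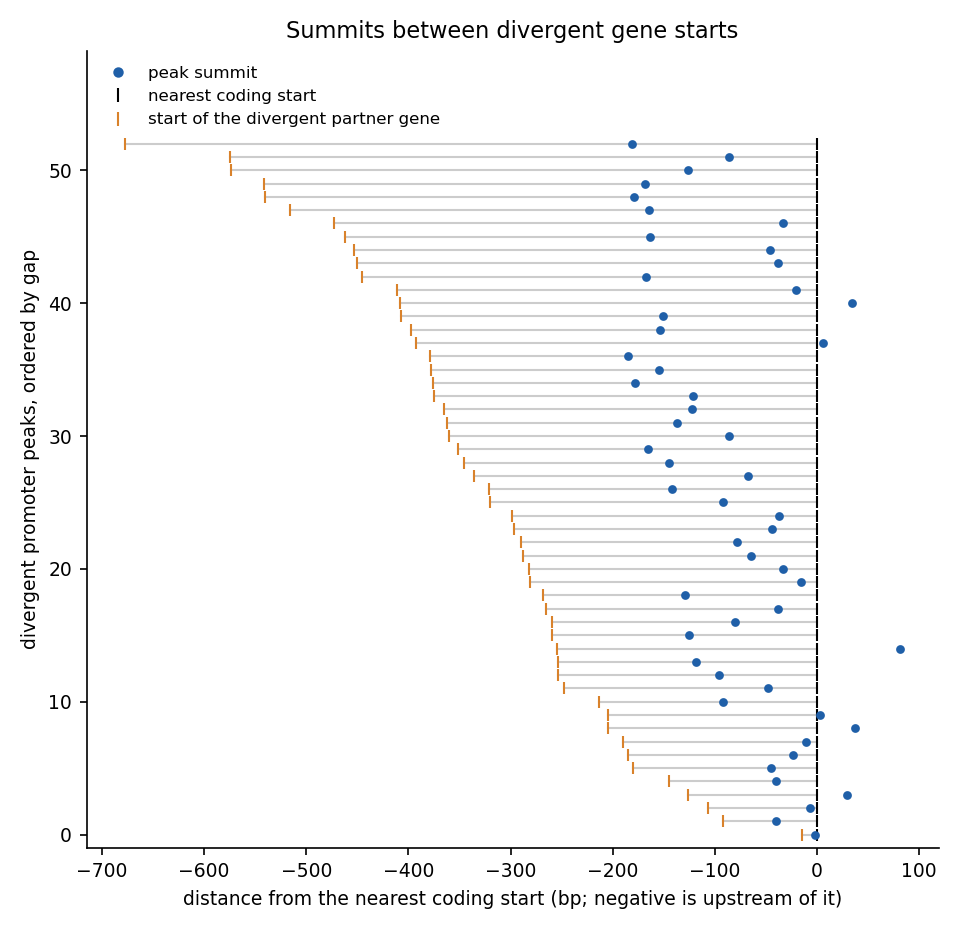
Each row is 1 of the 53 divergent promoter peaks, ordered by the distance between the starts; black ticks mark the nearest coding start, orange ticks the start of the partner gene, blue points the summit, and the x axis is the distance in bp from the nearest start. In 47 rows the point lies between the ticks, and by construction nearer the black one.

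Promoter peaks lay at 1.2% of all coding genes, and the largest shares of a list were at stress transcription factors (13.3%), V-ATPase and Rab genes (10%), the respiratory chain (9.72%) and translation factors (9.52%). The V-ATPase and Rab share counts vha-20, a low peak (4.15) beside a stronger one. Chemoreceptor, nuclear hormone receptor, F-box and neuropeptide genes had shares of 0.221 to 0.680%, and 10 lists had none. The background should be read with a second figure: 36% of coding genes had a weaker region under the rule, and of the 7361 genes with either kind of region 3.26% had a promoter peak. Counts are given with no test, as the lists were chosen with earlier results known. The lists were matched by gene name, so family members named otherwise are not counted. Of 28 lists 18 had a member with a promoter peak, and the 3733 listed genes as a whole had 47 (1.26%), close to the background.

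Mitochondrial energy production was represented by 7 of 72 nuclear genes of the respiratory chain (9.72%, 4.79 to 18.7): cox-5B (141.8), atp-1 (141.5), cox-6B (96.4), mev-1 (95.6), cyc-2.1 (cytochrome c, 74.6), nduv-3 (73.4) and nduc-2 (55.9). Of the 41 respiratory chain genes with a region of either kind, the 7 were 17.1%. The replicates ranked the first pair highly, cox-5B 168th and 119th and atp-1 229th and 139th, while nduv-3 was 1071st and 5006th. None of the 71 genes on the mitochondrial ribosomal protein list had a promoter peak. R186.8, annotated as a mitochondrial ribosomal protein but not on that list, had one (80.9).

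In protein synthesis, 4 of 42 translation factor genes had one: iff-2 (169.2), eef-1G (113.2), eef-2 (77.3) and ife-1 (72.0), which encodes a cap-binding protein. Cytosolic ribosomal protein genes had 4 of 74 (5.41%, 2.12 to 13.1): rpl-12 (110.2), rpl-7A (90.0), rplp-1 (86.7) and rpl-31 (3.55), the last a low peak beside a stronger one. A further 3, rpl-18A, rps-19 and rps-20, were reached only as the far side of a divergent peak. Of the aminoacyl-tRNA synthetases 1 of 31 had a peak, ears-2 (137.7), which serves mitochondria.

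The stress and protein quality control lists had few genes with a promoter peak, with signals of 72.9 to 161.7. Of 15 stress transcription factor genes 2 had a promoter peak, xbp-1 (99.6) and atfs-1 (72.9), which drive the unfolded protein responses of the endoplasmic reticulum and of mitochondria. The count is small, and the interval runs from 3.74% to 37.9%. Of 67 chaperone genes 2 had one, dnj-28 (161.7) and hsp-3 (153.4), and of 33 proteasome genes 1, rpn-11 (78.6). F44E5.4 and F44E5.5 carry no family name and so are on no list, and neither is enpl-1, the endoplasmin gene, whose peak had a signal of 84.1.

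Genes of transcription itself had 5 of 63 among TFIID, Mediator and RNA polymerase subunits: rpac-19 (121.3), mdt-26 (114.2), taf-4 (105.6), rpc-2 (85.4) and rpb-11 (69.2). Chromatin and RNA groups had fewer. Histones had 4 of 81 (his-37 at 199.0, his-35 and his-41 sharing a peak of 67.6, and his-64 at 60.4). Nuclear pore and transport genes had 2 of 41 (npp-8 and npp-3), splicing factors 2 of 55 (rsp-1 and snrp-40.1) and the DRM and synMuv group 1 of 23 (lin-9). The V-ATPase and Rab group, which acidifies and directs vesicles, had 4 of 40: rab-18 (97.6), vha-2 (83.2), vha-11 (65.0) and vha-20 (4.15), the last a low peak beside a stronger one.

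Of 12 Hippo pathway genes and EGL-44 partners 1 had a promoter peak, wts-1, the kinase of the LATS type that acts upstream of YAP. The wts-1 start lay 121 bp from the summit on one side and that of T20F10.2 92 bp on the other. The pooled signal was 94.4, the replicate signals were 59.8 and 31.1, and neither replicate's own list held it. The egl-44 start had only a weaker region and egl-46 and yap-1 had neither kind. None of the 16 touch receptor genes, the transcription factor gene mec-3 and the channel gene mec-4 among them, had a promoter peak, and 8 of them had a weaker region.

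Chemoreceptor genes, which act in a few sensory neurons, had 3 of 1357 (0.221%, 0.0752 to 0.648): srh-2 (135.7), srv-1 (66.8) and srh-24 (61.4). Of the 229 with a region of either kind the 3 were 1.31%. The F-box and MATH list had 2 of 395 (fbxb-85 and fbxa-108), nuclear hormone receptors 1 of 274 (nhr-135) and neuropeptide genes 1 of 147 (nlp-76). Promoter peaks also lay at K02A6.3 (110.9), fbxl-2 (109.5) and T10C6.15 (82.2), annotated as F-box proteins but not on that list. The share of the list therefore leaves out F-box genes named otherwise. None was found among 175 cuticle collagens, 239 C-type lectins, 185 detoxification genes (cytochrome P450, UGT and GST), 64 ceh homeobox genes, 54 ubiquitin conjugation genes, 48 major sperm protein genes, 46 cell cycle genes or 16 DEAD-box helicases. For the shorter of these lists a count of 0 leaves a wide interval, up to 19.4% at 16 genes, while at 239 genes it reached 1.58%.

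**Figure D4:**
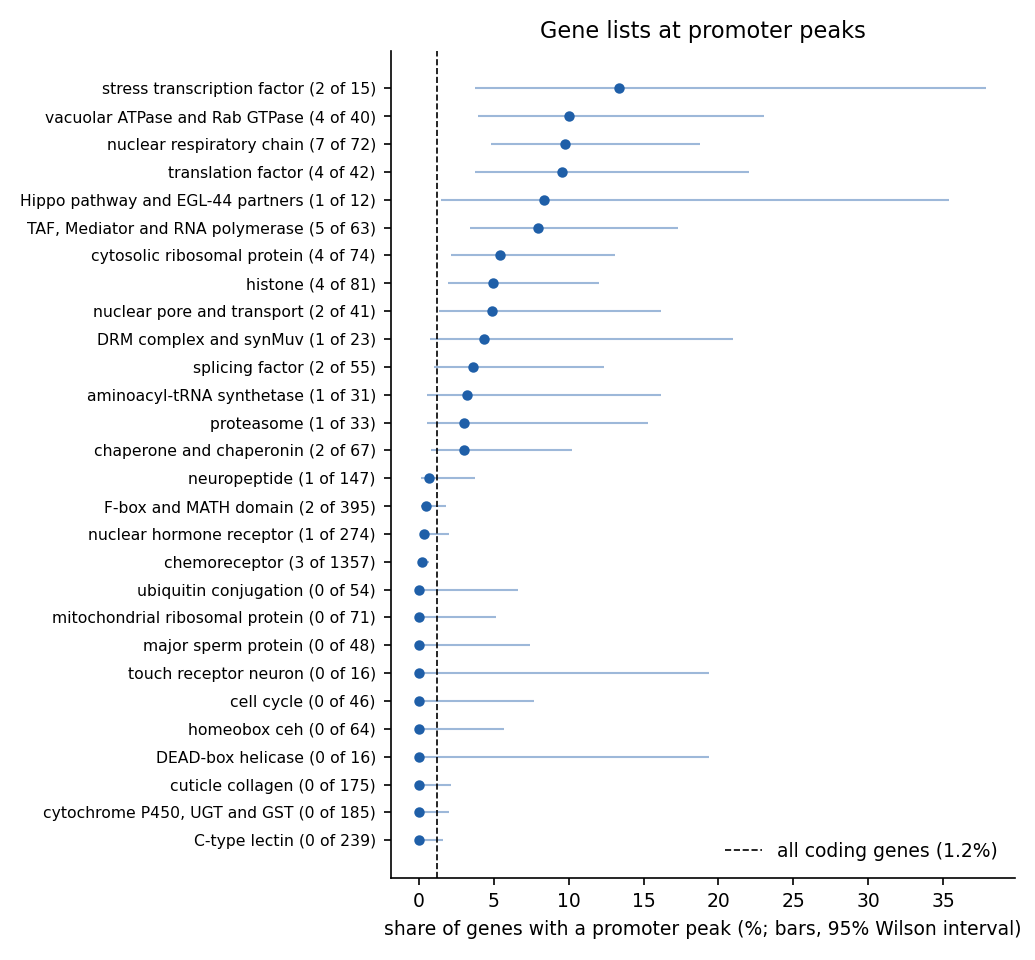
Share of each list's genes with a promoter peak (points) and its 95% Wilson interval (bars), with the number of genes in brackets; the dashed line is the share of all coding genes, 1.2%. Stress transcription factors (13.3%) and the V-ATPase and Rab list (10%) lie farthest right, the 4 lists from chemoreceptors (0.221%) to neuropeptides (0.680%) lie left of the line above 0, and 10 lists are at 0.

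Signal at promoter peaks was spread much like that of other peaks. The lowest, median and highest of the 226 were 2.28, 80.6 and 336.6, with quartiles of 69.2 and 96.5, and the 799 other nuclear peaks away from small RNA genes had a median of 76.7. Strength did not follow closeness to the start (Spearman rho of signal and absolute distance 0.00556 over the 226, a description). Upstream summits had a median signal of 83.1 and those at or downstream of the start 71.0. Of the 57 strongest, 46 summits were upstream and 17 peaks divergent, and of the 57 weakest 31 were upstream and 11 divergent.

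Both ends of the range had a shape of their own. The 10 promoter peaks narrower than the usual 310 bp (84 to 218 bp) had signals of 121.6 to 336.6, held the first 7 places, and were all in both replicates' own lists. They were tasp-1, Y17G9B.5, F44E5.4, cdc-48.1, set-16, his-37, pck-2, hsr-9, ndk-1 and kin-14. At the other end 10 had signals of 2.28 to 20.7, with no other promoter peak under 51.7. All 10 overlapped a stronger pooled peak, and all had the summit downstream of the start: cpr-4, T11G6.5, Y39E4B.6, patr-1, ufd-3, vha-20, rpl-31, kel-3, E01G4.3 and lst-4. Their replicate values may belong to the stronger neighbour, since ranked regions were matched by overlap. At cpr-4, a cathepsin B-like protease gene, the stronger neighbour was itself a promoter peak (signal 106.1, summit 186 bp upstream) beside the weak one (20.7, 13 bp downstream). Such gene-sharing pairs made up part of the 9 coding genes with more than 1 promoter peak. Without the 10, the upstream odds ratio was 2.998 and the divergent one 4.11.

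At the limit of the rule the values ran on. Just inside were klp-13 (summit 200 bp upstream, signal 76.0), epg-7 (198 bp, 119.7) and trap-1 (196 bp, 88.7). Just outside were B0507.3 (201 bp, 101.1), zip-2 (202 bp, 74.3) and tmed-10 (204 bp, 67.7).

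Of 4 short words sought within 100 bp of the summits on both strands, promoter peaks differed from weaker regions in 2. The 4 words were chosen with earlier results of these data known, which the adjusted p-values do not take into account. GAGAGA, a purine repeat that GAGA factor binds in Drosophila, was near 68 promoter peaks (30.1%, 24.5 to 36.4) and 15.1% of weaker regions, an odds ratio of 2.42 (1.78 to 3.26; Fisher's exact test, adjusted p = 8.08e-08 over the 4 words). It stands in the tasp-1 stretch. The share at the 799 other peaks was 30.3%, so promoter peaks had no excess of it over peaks elsewhere. TTTCAG, the worm splice acceptor, was near 45 promoter peaks (19.9%) and 36.2% of weaker regions, an odds ratio of 0.438 (0.308 to 0.613; Fisher's exact test, adjusted p = 4.41e-07), with 18.9% at other peaks.

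CATTCC, the core of the TEAD binding motif, was near 18 promoter peaks (7.96%, 5.10 to 12.2) and 10.2% of weaker regions, an odds ratio of 0.760 (0.440 to 1.24; Fisher's exact test, adjusted p = 0.315), with 9.39% at other peaks. It occurs in the F44E5.4 stretch. TATAAA, the TATA box, was near 35 promoter peaks (15.5%), as at cdc-48.1, and 18.3% of weaker regions, an odds ratio of 0.817 (0.550 to 1.18; Fisher's exact test, adjusted p = 0.315). At other peaks the TATAAA share was lower, 9.64%, a difference that was not tested. Bases G and C made up a median of 43.8% within 100 bp of promoter peak summits, 39.3% at weaker regions and 44.8% at other peaks. Between 40 and 50% GC, GAGAGA and TTTCAG kept their directions (odds ratios 1.75 and 0.553, both with an adjusted p of 0.0311).

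Promoter peaks were spread over all nuclear chromosomes, with 52 on III (23.0%, against 14.2% of weaker regions), 46 on V (20.4%, against 22.2%), 42 on I (18.6%, against 15.6%), 32 on IV (14.2%, against 16.4%), 29 on II (12.8%, against 17.5%) and 25 on X (11.1%, against 13.99%). These shares were not tested. On the autosomes 112 of 201 promoter peaks (55.7%) lay in the arms, the outer 30% at each end, against 57.3% of weaker regions, an odds ratio of 0.937 (0.700 to 1.26; Fisher's exact p = 0.665, adjusted 0.665).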

How the data were processed

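ChIP-seq of GFP-tagged EGL-44 in 2 biological replicates of 1 group was read from 8 peak lists: a ranked and a thresholded list for each replicate, the same for the pooled data, and a conservative pair. Each region has a summit and a signal as the authors deposited them; the ranked lists also hold a deposited score, the −log10 of the global IDR. The labels give a sonication size range of 200 to 800. The aligner, the caller and the scaling of signals: not given in the sources used here. Another 8 columns, which hold signals of unnamed inputs, stayed unused. Read counts were not used.

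Starts came from Ensembl release 115 and symbols and genome sequence from RefSeq, both of assembly WBcel235 and checked against the files' ce11 chromosomes; 46881 of 46926 genes matched a RefSeq symbol. A summit's distance is to the nearest start of any coding transcript. Divergent starts could overlap by up to 100 bp. Lists were matched by an overlap of 1 bp. Weaker regions are nuclear ranked pooled regions above the IDR limit. Of the ranked nuclear regions past that limit, 23 were not in the thresholded list, and 0 of them met the rule.

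Shares carry 95% Wilson intervals and were tested with Fisher's exact test (two-sided, exact conditional 95% bounds of the odds ratio), adjusted by Benjamini-Hochberg over the 6 shares and over the 4 words. Calls were made at 0.05. The code was tested on simulated data. Genes are named by rule: the 20 strongest members, the 5 strongest divergent members, up to 4 genes per list and 3 peaks on each side of the distance limit; others in the text were picked after their values were seen. The members, words and gene lists were chosen with earlier results of these data known. Name patterns of 3 lists were corrected after the first counts: ribosomal proteins were then 71 genes with 3 promoter peaks, cell cycle genes 55 with 1 (cdc-48.1) and chemoreceptors 1366 with 3. Alternatives changed the distance limit, the starts, the small RNA step, the IDR limit, the list, the divergent distance, the word window and the arm length. Software was SciPy 1.17.1, NumPy 2.4.6, Biopython 1.88, pandas 2.3.3 and Matplotlib 3.10.9, under Python 3.11.15.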

Additional observations from a re-analysis of the deposited data

How the results depend on the processing

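No paired analysis was possible because there is only 1 group. Of the 131 alternative values 111 kept their direction and, where tested, their side of the threshold, or for counts and medians stayed near the reported value. Among them was every value of the divergent and upstream shares and of GAGAGA (odds ratios 1.75 to 2.69) and TTTCAG (0.256 to 0.553), although their sizes moved. For the share of peaks at coding starts the odds ratio was 1.08 at an IDR of 0.001 or less. Over the replicates' own lists it ran from 0.881 to 1.42. These values keep small RNA regions in both totals and were not computed without them. The cause was not tested. Presence in both own lists turned to an odds ratio of 1.02 at a distance limit of 100 bp and was 0.695 (Fisher's exact p = 0.0342) with small RNA genes kept in. That of the conservative list turned to 0.921 with small RNA genes kept in and to 0.696 at the stricter IDR, and the arm share to 1.33 there and to 1.02 to 1.06 in single replicates. The difference in median signal was 0.802 with small RNA genes kept in, −2.64 at the stricter IDR and −0.411 to 2.51 in single replicates. The median position was −31 bp with a limit of 100 bp and −105.5 bp with 300 bp, as the limit itself dictates. Genes numbered 119 at 100 bp, 81 at the stricter IDR and 68 to 130 in single replicates, where fewer peaks passed. Presence in both own lists and in the conservative list has no value in a single replicate. Alternatives chosen after seeing the data left out members beside a stronger peak, kept upstream summits or 40 to 50% GC only, or left small RNA regions out of both totals. TATAAA then had an odds ratio of 0.553 (adjusted p = 0.0116, Fisher's exact test) with upstream summits only and 1.14 in the GC band, so no direction is given for it. The depth behind each region is unknown, so how many promoters fell short for want of reads could not be judged.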

Other observations

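Words outside the 4 tested were looked for among all words of 6 to 8 letters and picked because they were in excess at these same promoter peaks, so no test is given and the excess follows in part from the choice. ACGCGC, seen in the hsp-3 stretch, was near 47 of 226 promoter peaks (20.8%), 4.40% of weaker regions and 9.89% of other peaks. It was near 19 of the 53 divergent promoter peaks (35.8%) and 28 of the other 173 (16.2%). GCGCGC was near 36 promoter peaks (15.9%), 2.69% of weaker regions and 8.01% of other peaks. GCGCCAG was near 19 promoter peaks (8.41%), 1.37% of weaker regions and 3.75% of other peaks. The E-box word CACGTG was near 32 promoter peaks (14.2%), 4.90% of weaker regions and 10.6% of other peaks. TGCGTCT, which stands in both the F44E5.4 and the hsp-3 stretch, was near 26 promoter peaks (11.5%) and 3.67% of weaker regions, with 12.1% at other peaks.

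A pair of words was added for their known roles, also after the data had been seen. GAANNTTC, the core of the heat shock element, was near 22 promoter peaks (9.73%) and 12.3% of weaker regions, although the F44E5.4 stretch holds several copies. GGTTCNA, the first part of the B box by which RNA polymerase III genes such as tRNA genes are recognised, was near 17 promoter peaks (7.52%), 6.41% of weaker regions and 9.64% of other peaks. At the 512 peaks left out for a small RNA gene start within 300 bp it was near 234 (45.7%).

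A start of a piRNA, miRNA, lincRNA, antisense RNA or pseudogene lay within 300 bp of the summit at 5 promoter peaks.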
